A study of Mus musculus with 9 samples.

Results

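The genes described here are 10 axon regeneration-associated genes, that is, genes known to rise in neurons that regrow an axon: Gap43, Basp1, Stmn2, Stmn4, Cap2, Chl1, Sox11, Sprr1a, Ecel1 and Gal. They were chosen by name, with earlier results of these data known, so counts of members beside all genes are a description. The deposited expression table held 15228 genes, and 7 of the 10 members had a row in it. Sprr1a (a small proline-rich protein), Ecel1 (a membrane protease of the neprilysin family) and Gal (the neuropeptide galanin) had no row and were not analysed here.

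After an axon is cut or crushed, an injured neuron can switch on a growth program in which transcription factors raise the genes of growth cone membrane proteins, microtubule and actin regulators, adhesion molecules and peptides. Neurons of peripheral ganglia run this program strongly and regrow their axons. Retinal ganglion cells (RGCs), whose axons form the optic nerve, run it weakly, and most of them die after optic nerve crush (ONC).

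Cells sorted as RGCs from the retinas of wild-type C57BL/6J mice of 6 to 8 weeks were sequenced in 9 libraries, 3 in each of 3 groups. Ctrl came from intact retinas, ONC from crushed eyes that received 3 μL of vehicle (PBS) by intraocular injection right after the crush, and TPEN from crushed eyes that received 3 μL of 100 μM TPEN, a membrane-permeable chelator of mobile zinc. Both crushed groups were collected 3 d after injury, and the text of the study gives no injection for Ctrl, so crush and injection cannot be told apart in ONC/Ctrl. Comparing ONC with Ctrl asks what the injury did, and comparing TPEN with ONC asks what zinc chelation changed after it. The sources used here do not say whether separate mice gave the libraries of a group, so the p-values measure the spread between libraries, which may be technical.

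Levels are RPKM, reads normalized for the exon length of the gene and for the size of the library, so that they can be compared between genes as well as between libraries. SE stands for the standard error of a log2 fold change. The libraries held 19946993 to 23109754 reads, so that a gene without a read could still hold up to 3 reads, or 0.130 to 0.150 RPM (reads normalized for library size alone), a limit that covers counting error only. Fold changes are on the log2(RPKM + 0.1) scale, which makes the changes of low genes smaller than the ratios of their means, and a gene passed when its limma p-value, adjusted by the Benjamini-Hochberg method over the 13566 genes whose mean reached 0.5 RPKM, was under 0.05. Of the 7 measured members, 5 (Gap43, Basp1, Stmn2, Stmn4 and Cap2) were above that mean and had at least 0.5 RPKM in every group. Chl1 and Sox11 were below it, and their values are from a fit of all 15228 listed genes.

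The cells carried the name RGCs from the sort on surface markers (CD90.2-positive, and negative for CD48, CD15 and CD57), and their transcripts were only in part those of RGCs. Of 15 RGC markers, 13 had a row, from Nefl, a neurofilament gene, at a mean of 240.0 RPKM over the 9 libraries, to Pou4f1, an RGC transcription factor, at 0.332 RPKM, rank 14252 of 15228 genes. The 7 rod markers summed to between 15354 and 18254 RPKM in each library. Of the 9 marker lists with a row, 6 had summed levels that did not overlap between any of the 3 groups. These were the lists of rods, cones, Müller glia, astrocytes, microglia and vessels. Among single genes tested, 20.7% were higher without overlap in ONC/Ctrl and 18.1% in TPEN/Ctrl. A share for sums of genes over all 3 groups was not computed, so the count of lists is a description. The 10 microglia and macrophage markers summed to 3.84 to 4.28 RPKM in Ctrl, 50.1 to 54.2 in ONC and 21.3 to 22.2 in TPEN, and the 3 astrocyte markers with a row to 5.54 to 6.21, 27.2 to 28.3 and 17.3 to 20.0 RPKM. The 7 Müller glia markers summed to 549 to 569 RPKM in Ctrl, 613 to 625 in ONC and 481 to 493 in TPEN, and the 4 vessel markers with a row to 11.9 to 12.6, 14.0 to 14.04 and 15.04 to 16.0 RPKM. In the Müller glia sum Apoe weighs most (mean 206.0 RPKM), and its single markers did not move as one. In ONC/Ctrl, 2 of the 7 were higher and 3 lower (11.7% and 6.97% of all genes tested). In TPEN/ONC, 1 was higher and 4 were lower (3.24% and 4.14%). The 5 cone markers summed to 102 to 107, 88.5 to 96.3 and 156 to 158 RPKM. In ONC/Ctrl, 3 of the 5 cone markers were lower (6.97% of all genes tested) and 0 higher (11.7%), and in TPEN/ONC all 5 were higher (3.24%). The part of these cells in the members' changes was not tested. The summed RGC markers, in which Nefl weighs most, were 371 to 380 RPKM in Ctrl, 380 to 402 in ONC and 297 to 312 in TPEN. Single RGC markers went both ways. Of the 9 tested, 3 were higher and 1 lower in ONC/Ctrl (11.7% and 6.97% of all genes tested). In TPEN/ONC, 2 were higher and 3 lower (3.24% and 4.14%). Markers of neutrophils, fibroblasts and eye epithelium had no row. In every result below, a change in the share of a cell type and a change in RNA per cell cannot be told apart.

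After ONC, 4 of the 5 members tested were upregulated (Gap43, Basp1, Stmn2 and Stmn4), against 11.7% of all genes tested, and 0 were downregulated, against 6.97%. The remaining tested member, Cap2, did not pass in any comparison. In TPEN/ONC, 2 of the 5 were lower (Gap43 and Basp1), against 4.14% of all genes tested, and 0 were higher, against 3.24%. For these counts of 0, limma also gave 0 members at an unadjusted p under 0.05, and so did voom on the read counts. In TPEN/Ctrl, 3 of the 5 were still higher (Gap43, Stmn2 and Stmn4), against 8.36% of all genes, and 0 were lower by limma, at an unadjusted p under 0.05 or by voom, against 5.01%. The median log2 fold change of the 5 was 0.77 in ONC/Ctrl, -0.28 in TPEN/ONC and 0.47 in TPEN/Ctrl, beside 0.02, -0.01 and 0.01 for all genes tested. By the values of single libraries alone, 4 of the 5 were higher in every ONC library than in every Ctrl library, as were 20.7% of all genes. In TPEN/ONC, 3 were lower without overlap (15.6% of all genes) and 1 was higher (12.5%), and in TPEN/Ctrl, 4 were higher (18.1%). With a fold change of at least 1.5 asked for as well, 3 members were upregulated in ONC/Ctrl (4.58% of all genes tested), 0 were downregulated in TPEN/ONC (1.21%) and 2 were upregulated in TPEN/Ctrl (3.45%), and Basp1, at 1.49 times its Ctrl mean after ONC, lay just under that limit.

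**Figure D1:**
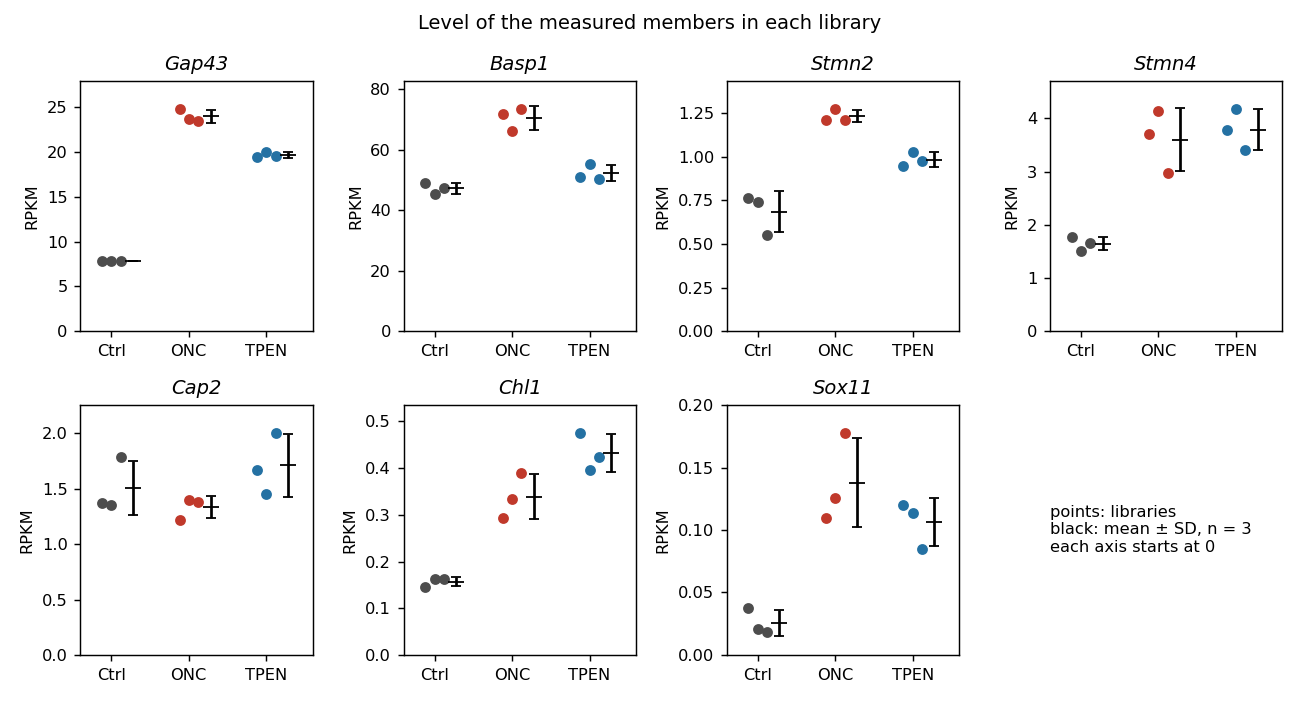
Level in RPKM of the 7 measured members in each library (points), with the mean and SD of the 3 libraries of a group in black; each vertical axis starts at 0 and has its own range. Gap43, Basp1 and Stmn2 were highest in ONC, Chl1 was highest in TPEN, Stmn4 overlapped between the crushed groups, and Cap2 overlapped between Ctrl and the other groups.

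Per length, Basp1 was the most abundant member in every group, followed by Gap43, and Sox11 was the least. Over the 9 libraries the mean levels were 56.6 RPKM for Basp1 (rank 762 of 15228 genes), 17.1 for Gap43, 3.01 for Stmn4, 1.51 for Cap2, 0.967 for Stmn2, 0.309 for Chl1 and 0.0899 for Sox11 (rank 15175). Neighbours in this order did not overlap within a group, except Stmn4 and Cap2 in Ctrl and Cap2 and Stmn2 in ONC. Across all genes tested, the median level was 5.08 RPKM, so that only Basp1 and Gap43 stood above the middle of the table.

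Gap43 encodes neuromodulin, a protein under the growth cone membrane that binds calmodulin and is the classic marker of axon growth. It lies on the minus strand of chromosome 16 (42248442 to 42340651, GRCm38). Gap43 measured 7.79, 7.78 and 7.78 RPKM in the Ctrl libraries, 24.8, 23.6 and 23.4 RPKM in ONC, and 19.4, 20.0 and 19.6 RPKM in TPEN. Every ONC library lay above every TPEN library, and every TPEN library above every Ctrl library. The 3 Ctrl libraries differed by 0.0562% (coefficient of variation), although their 238 to 274 reads carry a counting error of 6.21%, so the closeness of these values is smaller than the precision of counting. In ONC and TPEN the libraries also differed by less (3.05% and 1.64%) than counting error (3.45% and 4.02%). The SE and p-values of Gap43 may therefore be too small. The log2 fold change was 1.61 in ONC/Ctrl (SE 0.04, limma adjusted p = 4.9e-09), a rise of the mean to 3.08 times. In TPEN/ONC it was -0.28 (SE 0.04, limma adjusted p = 0.00210), with a mean 18.0% below ONC, and in TPEN/Ctrl it was 1.32 (limma adjusted p = 2.6e-08). Of the 5 members tested, Gap43 had the largest rise in ONC/Ctrl.

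Basp1 encodes a myristoylated growth cone protein that, like Gap43 and the MARCKS proteins, binds membrane phosphoinositides and calmodulin. It lies on chromosome 15 (25363285 to 25413764, minus strand). Basp1 measured 48.9, 45.3 and 47.3 RPKM in Ctrl, 71.7, 66.0 and 73.4 RPKM in ONC, and 50.9, 55.3 and 50.4 RPKM in TPEN. The ONC libraries stood apart above all others, and the TPEN libraries lay just above those of Ctrl without overlap. The log2 fold change was 0.58 (SE 0.05, limma adjusted p = 4.5e-05) in ONC/Ctrl and -0.43 (SE 0.05, limma adjusted p = 0.00123) in TPEN/ONC. Between TPEN and Ctrl the difference was 0.15 with a 95% interval of 0.03 to 0.26, which did not pass (limma adjusted p = 0.0987). It passed with voom on the read counts (adjusted p = 0.0456), and among the alternatives that tested for any change its adjusted p lay between 0.0456 and 0.264.

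The promoter of Basp1 is shown because its base composition stood out among the members with a promoter sequence in RefSeq (GRCm38.p6), which were Basp1, Cap2, Chl1, Ecel1, Gal, Sox11 and Sprr1a. The 300-base window around its start, 250 bases before and 50 after, was 78.0% G and C and held 38 CG pairs, more than 95.05% of 32851 RefSeq promoters, whose median was 7 CG pairs. Sox11, the transcription factor among the members, had 21 CG pairs, Gal 16, Chl1 13, Cap2 9, Ecel1 6 and Sprr1a 0. The lines below give the 250 bases before the start of Basp1 (chr15:25413765-25414014, minus strand) and of Sox11 (chr12:27342719-27342968, minus strand), 5′ to 3′, with CG pairs in capitals, 30 in the Basp1 stretch and 17 in that of Sox11.
Basp1: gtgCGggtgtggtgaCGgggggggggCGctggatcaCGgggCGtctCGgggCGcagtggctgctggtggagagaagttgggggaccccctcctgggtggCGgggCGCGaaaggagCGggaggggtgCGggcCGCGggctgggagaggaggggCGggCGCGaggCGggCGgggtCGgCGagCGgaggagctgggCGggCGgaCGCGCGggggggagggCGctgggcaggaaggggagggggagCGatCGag
Sox11: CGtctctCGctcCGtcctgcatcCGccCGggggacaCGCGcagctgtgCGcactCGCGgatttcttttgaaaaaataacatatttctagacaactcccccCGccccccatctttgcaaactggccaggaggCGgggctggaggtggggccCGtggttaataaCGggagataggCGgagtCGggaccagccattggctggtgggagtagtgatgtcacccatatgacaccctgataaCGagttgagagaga
Motifs of factors of the injury response were searched in the 7 windows on both strands. The AP-1 motif TGANTCA was in 1 of the 7, that of Sprr1a, against 7.81% of all promoters. The CRE motif TGACGTCA, the STAT motif TTCNNNGAA, the SOX motif AACAATG and the C/EBP motif TTGCGCAA were in 0 of the 7, against 1.79%, 8.30%, 3.78% and 0.183% of all promoters. These are matches of letters in these windows only, and 7 windows are too few to set against such shares. Of these genes, Sprr1a, Ecel1 and Gal had no measured level, while Gap43, Stmn2 and Stmn4 had no promoter sequence to search.

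Stmn2 and Stmn4 encode stathmins of neurons, which bind tubulin dimers and regulate the assembly of microtubules. Stmn2, also known as SCG10, is carried to growth cones. It lies on chromosome 3 (8509360 to 8561606, plus strand) and was low in these libraries, with 62 to 164 reads in each. Stmn2 measured 0.764, 0.742 and 0.551 RPKM in Ctrl, 1.21, 1.27 and 1.21 RPKM in ONC, and 0.947, 1.03 and 0.975 RPKM in TPEN. The 3 groups did not overlap, with ONC highest and Ctrl lowest, and the third Ctrl library lay well below the other two. The rise in ONC/Ctrl was 0.77 (SE 0.14, limma adjusted p = 0.00322). In TPEN/ONC the difference was -0.30 with a 95% interval of -0.60 to 0.01 and did not pass (limma adjusted p = 0.235). In TPEN/Ctrl it was 0.47 (limma adjusted p = 0.0476), and this call was lost whichever of the 9 libraries was left out (adjusted p from 0.0550 to 0.126, and from 0.0338 to 0.126 over all alternatives that tested for any change).

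Stmn4, also known as RB3, lies on chromosome 14 (66344296 to 66361680, plus strand). It measured 1.77, 1.51 and 1.66 RPKM in Ctrl, 3.70, 4.14 and 2.98 RPKM in ONC, and 3.79, 4.18 and 3.40 RPKM in TPEN. All 6 libraries of the crushed groups lay above those of Ctrl, and ONC and TPEN overlapped. Stmn4 rose by 1.07 (SE 0.13, limma adjusted p = 3.2e-04) in ONC/Ctrl and by 1.15 (SE 0.13, limma adjusted p = 3.1e-04) in TPEN/Ctrl. Its difference in TPEN/ONC was 0.08 with a 95% interval of -0.21 to 0.37 (limma adjusted p = 0.781), and it was -0.05 without ONC replicate 3.

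Cap2 encodes a cyclase-associated protein that binds actin monomers and helps recycle actin. It lies on chromosome 13 (46501848 to 46649642, plus strand). Cap2 measured 1.37, 1.35 and 1.78 RPKM in Ctrl, 1.22, 1.40 and 1.38 RPKM in ONC, and 1.67, 1.45 and 2.01 RPKM in TPEN. Ctrl overlapped with both other groups, and every TPEN library lay above every ONC library. The log2 fold changes were -0.15 in ONC/Ctrl (95% interval -0.49 to 0.18), 0.33 in TPEN/ONC (-0.0049 to 0.66) and 0.17 in TPEN/Ctrl (-0.16 to 0.51), and none passed (limma adjusted p = 0.532, 0.234 and 0.508). A change of Cap2 was thus not detectable at this spread between libraries.

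Chl1 encodes a close homolog of L1, a cell adhesion molecule of the immunoglobulin superfamily found on growing axons. It lies on chromosome 6 (103510586 to 103750211, plus strand), and its long exons (12293 bases) gave it 40 to 117 reads per library at a low level per length. Chl1 measured 0.145, 0.162 and 0.162 RPKM in Ctrl, 0.294, 0.333 and 0.390 RPKM in ONC, and 0.476, 0.395 and 0.424 RPKM in TPEN. The 3 groups did not overlap, and TPEN was highest, whereas ONC was highest for Gap43, Basp1 and Stmn2. In the fit of all listed genes, the log2 fold change was 0.77 (SE 0.15, limma adjusted p = 0.00462) in ONC/Ctrl, where 12.6% of listed genes were higher, and 1.05 (SE 0.15, limma adjusted p = 0.00118) in TPEN/Ctrl, where 8.92% were. The call in ONC/Ctrl was lost after quantile normalization between the libraries (adjusted p = 0.0845, with a range of 3.1e-04 to 0.0845 over the alternatives that tested for any change), and also when a fold change of 1.5 was the null. The difference in TPEN/ONC was 0.28 with a 95% interval of -0.05 to 0.61 and did not pass (limma adjusted p = 0.300).

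Sox11 encodes a SoxC transcription factor that is high in developing neurons and rises in injured sensory neurons. It is a gene of 1 exon on chromosome 12 (27334264 to 27342574, minus strand). Sox11 had 7, 4 and 3 reads in the Ctrl libraries, 21, 24 and 34 in ONC, and 20, 21 and 14 in TPEN, or 0.0376, 0.0208 and 0.0180 RPKM, 0.110, 0.126 and 0.178 RPKM, and 0.120, 0.114 and 0.0844 RPKM. All 6 libraries of the crushed groups lay above Ctrl, and ONC and TPEN overlapped. Every gene in the deposited table reached 1 RPM in at least 2 libraries, and Sox11 did so in 2 ONC libraries and 1 TPEN library and in 0 Ctrl libraries. Its place in the table therefore rests on the groups in which it was high, and its level is given as a description with no test. Summed over the 3 libraries, ONC had 79 reads and Ctrl 14, a ratio, after division by the library totals, of 5.37. The ratio was 4.15 for TPEN to Ctrl and 0.772 for TPEN to ONC. These ratios of summed reads do not hold the spread between libraries, and no conclusion is drawn from them.

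**Figure D2:**
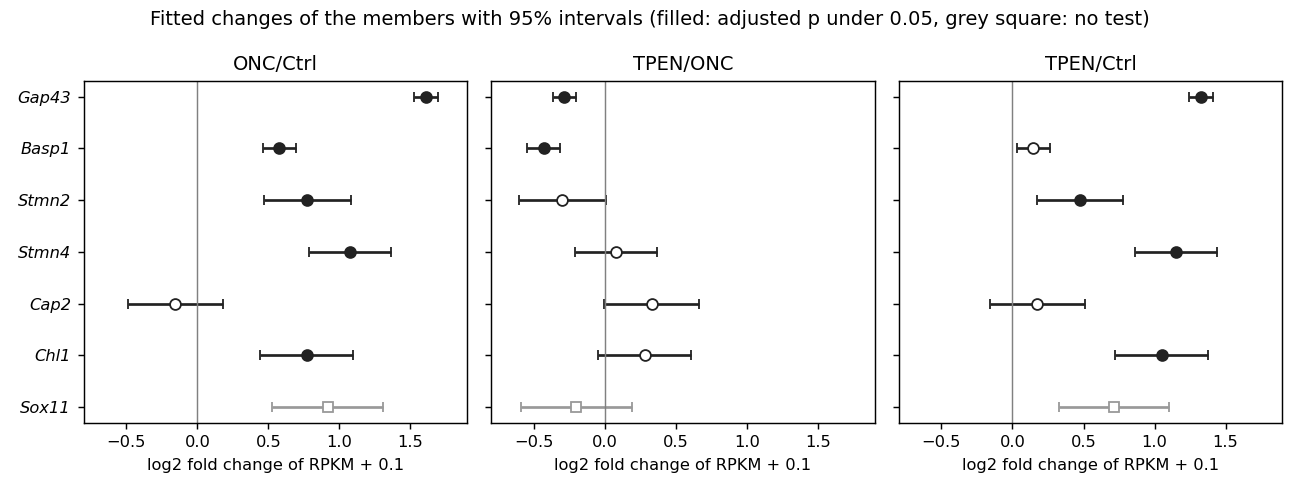
Fitted log2 fold changes of RPKM + 0.1 with their 95% intervals for the 7 measured members in the 3 comparisons; filled circles had a limma adjusted p under 0.05 (Chl1 from the fit of all listed genes), open circles did not, and Sox11 (grey square) was not tested. In ONC/Ctrl, 5 circles lie right of 0 and are filled, in TPEN/ONC those of Gap43 and Basp1 lie left of 0 and are filled, and Cap2 is open in all 3 panels.

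The members that were higher in ONC than in Ctrl kept unequal shares of that rise with TPEN. The share kept is the distance of a TPEN library from the Ctrl mean as a percent of the distance of the ONC mean from the Ctrl mean, so that 0% is the level of Ctrl and 100% that of ONC. It is a description with no test, and its SD holds only the spread of the 3 TPEN libraries. Basp1 kept 21.6% ± 11.7 (SD, n = 3 libraries), the least, and Stmn2 kept 54.4% ± 7.57. Sox11 kept 71.8% ± 17.0 and Gap43 73.3% ± 2.00, so that these 2 were alike within their spread. The TPEN libraries of Gap43 differed by less than counting error, so its SD may be too small. Stmn4 kept 109% ± 19.9, a range that includes 100%. Chl1 was at 151% ± 22.5, with all 3 TPEN libraries (131% to 175%) beyond the ONC mean, and at 176% without ONC replicate 3. The 2 growth cone proteins, Gap43 and Basp1, thus lay far apart in this share. The shares of their TPEN libraries did not overlap (71.7% to 75.6% and 13.9% to 35.1%). The share divides by the rise of each gene, and the ONC mean was 3.08 times Ctrl for Gap43 but 1.49 times for Basp1. Their log2 fold changes in TPEN/ONC were -0.28 (SE 0.04) and -0.43 (SE 0.05). The distance between the shares therefore depends on the size of the rise as well as on the fall with TPEN.

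**Figure D3:**
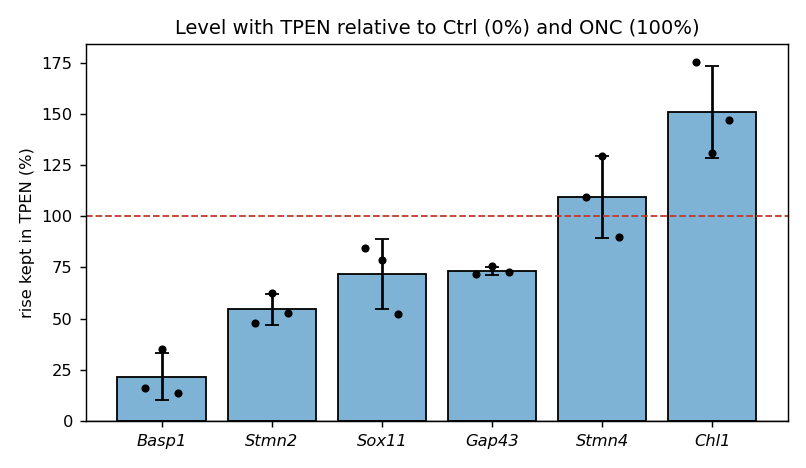
Share of the rise from Ctrl to ONC that was kept with TPEN, in percent, for the 6 measured members that were higher in ONC; bars are the mean and whiskers the SD of the 3 TPEN libraries (points), and the dashed line marks the ONC mean. The bars run from 21.6% for Basp1 to 151% for Chl1, and only that of Chl1 has all its points above the line.

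Whether the members moved apart from Gap43 was tested within libraries, as the log2 ratio of a member's RPKM to that of Gap43 in the same library, which does not depend on library scaling. For 4 members and 2 comparisons, 8 ratios were tested by two-sided exact permutation, in which 3 libraries against 3 cannot give a p below 0.1, so that no ratio could pass. In ONC/Ctrl the ratio to Gap43 changed by -1.04 for Basp1, -0.76 for Stmn2, -0.51 for Chl1 and -0.50 for Stmn4, each without overlap (exact p = 0.1, Benjamini-Hochberg adjusted p = 0.133). Gap43 thus rose more than these 4 members in every pair of an ONC and a Ctrl library. Since Gap43 had the largest rise of the members tested, the direction of these changes follows from its choice as the reference. In TPEN/ONC the ratio was 0.64 higher for Chl1 and 0.15 lower for Basp1, again without overlap (exact p = 0.1, adjusted p = 0.133). The ratios of Stmn4 (0.37 higher, exact p = 0.2) and Stmn2 (0.04 lower, exact p = 0.4) overlapped between TPEN and ONC. The ratio of Sox11, a description with no test, differed by 0.86 in ONC/Ctrl and by -0.08 in TPEN/ONC, and the groups overlapped in both. The direction for Sox11 was not stable, since it turned in ONC/Ctrl when 0.1 RPKM was added to each level and in TPEN/ONC with that addition or without ONC replicate 3 or TPEN replicate 3.

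The relatives of the members in their gene families did not move as one group. Among the 4 stathmins, Stmn1, which is expressed in many dividing and growing cells, was at 24.9 ± 0.675 RPKM in Ctrl, 39.0 ± 0.946 in ONC and 29.0 ± 0.664 in TPEN (SD, n = 3). It rose by 0.65 in ONC/Ctrl (limma adjusted p = 1.6e-06) and fell by 0.43 in TPEN/ONC (limma adjusted p = 1.2e-04), whereas Stmn3 was at 6.24 ± 1.02, 6.41 ± 1.24 and 6.32 ± 1.08 RPKM and did not pass in either comparison (log2 fold changes 0.03 and -0.01). Of the proteins related to Gap43 and Basp1 in function, Marcksl1 rose by 0.67 and fell by 0.50 (limma adjusted p = 2.1e-04 and 0.00461). Marcks rose by 0.32 in ONC/Ctrl (limma adjusted p = 0.0408), a call lost without any 1 of the 6 Ctrl and ONC libraries (adjusted p up to 0.132), and its difference in TPEN/ONC was -0.21 (limma adjusted p = 0.232). Beside Cap2, its more widely expressed relative Cap1 was far higher, at 31.6 ± 0.895 RPKM in Ctrl, and rose by 0.31 in ONC/Ctrl (limma adjusted p = 0.00139) and fell by 0.20 in TPEN/ONC (limma adjusted p = 0.0311). The last call was lost without ONC replicate 1 or 3 or TPEN replicate 1 or 3 (adjusted p up to 0.0981).

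Within the L1 family of adhesion molecules, Nrcam had the same order of groups as Chl1, at 1.49 ± 0.148 RPKM in Ctrl, 1.92 ± 0.162 in ONC and 2.57 ± 0.224 in TPEN (SD, n = 3). Only its difference in TPEN/Ctrl, 0.75, passed (limma adjusted p = 0.00175), while those in ONC/Ctrl (0.35) and TPEN/ONC (0.40) did not (limma adjusted p = 0.0596 and 0.0609). L1cam, below the filter, had the same order at 0.277 ± 0.0721, 0.379 ± 0.0567 and 0.466 ± 0.0270 RPKM, and in the fit of all listed genes its difference in TPEN/Ctrl was 0.60 (limma adjusted p = 0.0464), a call lost in 8 of the 9 fits with 1 library left out (adjusted p up to 0.143). Nfasc, which organises the axon initial segment and nodes, rose by 0.11 in ONC/Ctrl (limma adjusted p = 0.0384), a call lost in 7 of the 9 fits with 1 library left out (adjusted p up to 0.124), and had a difference of -0.09 in TPEN/ONC (limma adjusted p = 0.149). The other SoxC factors, Sox4 at 0.698 ± 0.0603 RPKM and Sox12 at 13.5 ± 1.48 RPKM in Ctrl, had log2 fold changes of 0.04 and -0.02 in ONC/Ctrl, and neither passed in any comparison. Of the relatives of Ecel1, Ece1 (an endothelin-converting enzyme) had a difference of -0.13 in ONC/Ctrl (limma adjusted p = 0.375) and rose by 0.48 in TPEN/ONC (limma adjusted p = 0.0153), and Ece2, below the filter, had one of 0.52 there (limma adjusted p = 0.0868). The call of Ece1 was lost without ONC replicate 1 or 2 or TPEN replicate 1 or 3 (adjusted p up to 0.0590). The 6 genes of the small proline-rich family and the 5 of the galanin group had no row.

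**Figure D4:**
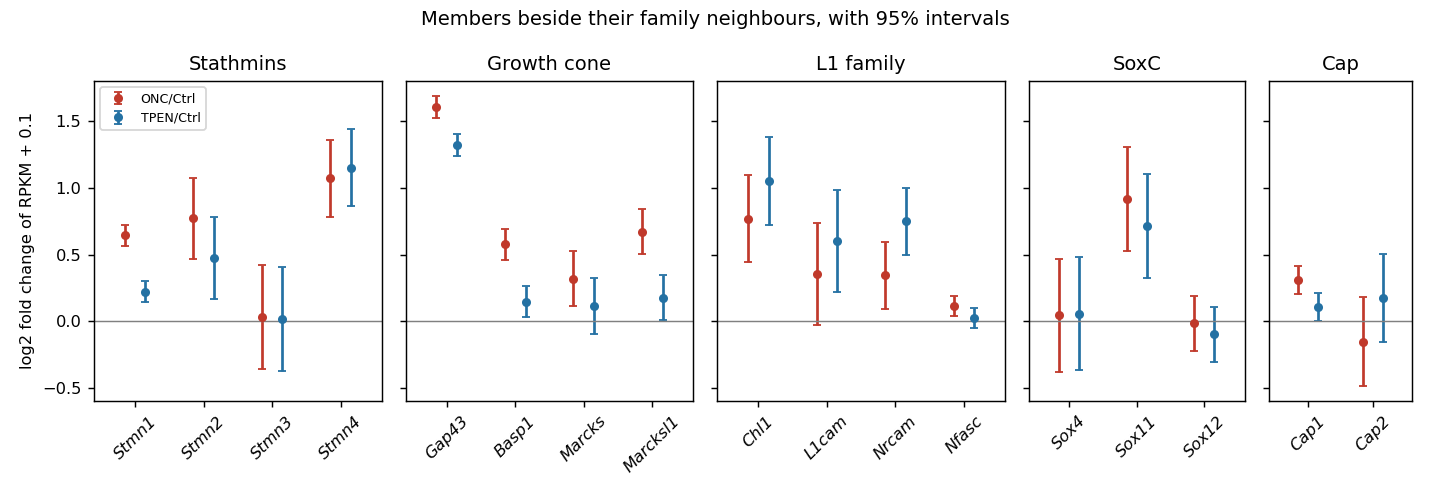
Log2 fold changes of RPKM + 0.1 with their 95% intervals in ONC/Ctrl (red) and TPEN/Ctrl (blue) for the members and their family relatives. Chl1, L1cam and Sox11 are from the fit of all listed genes, and the intervals of Sox11 are a description with no test. In the stathmins and in the group of Gap43 and Basp1 the blue points lie at or below the red ones except for Stmn4, and for Chl1, L1cam and Nrcam they lie above.

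For each member that passed in any comparison, and for Sox11, the 2 genes with the nearest profile over the 9 libraries were sought among genes whose mean reached 1 RPKM, by the Euclidean distance of log2(RPKM + 0.1) values centred on their means. Klhl29 (distance 0.18) was nearest to Gap43, with 5.57 ± 0.228, 16.9 ± 0.663 and 14.7 ± 0.193 RPKM in Ctrl, ONC and TPEN (SD, n = 3), followed by Gm15983 (0.18). Nearest to Basp1 were Stk10 (0.18) and the stathmin Stmn1 (0.18), which was chosen by this rule and is also a relative of other members. Nearest to Stmn2 were Ptrf (0.23) and Plce1 (0.28), nearest to Stmn4 were Sec22c (0.46) and S100a16 (0.49), and nearest to Chl1 were Adamts1 (0.31) and Gm42848 (0.37). Adamts1, a secreted protease, was at 4.55 ± 0.215 RPKM in Ctrl, 7.70 ± 0.218 in ONC and 9.86 ± 0.213 in TPEN, the same order of groups as Chl1. For Sox11, Tirap (0.29) and Rgag4 (0.39) were nearest, on the few reads described above. These distances describe likeness in these libraries only.

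The members were then set beside 90 other genes that are known for roles in axon regeneration, of which 65 had a row and 55 were tested. This list too was chosen with earlier results of these data known, so its counts beside all genes are a description. In ONC/Ctrl, 29 of the 55 rose and 0 fell in limma, against 11.7% and 6.97% of all genes tested, with a median log2 fold change of 0.25 beside 0.02 for all genes. At an unadjusted p under 0.05 in limma, and by voom on the read counts, 1 was lower. In TPEN/ONC, 12 were lower, against 4.14% of all genes, and 2 higher, against 3.24% (median -0.14, beside -0.01). In TPEN/Ctrl, 21 were higher, against 8.36% of all genes, and 2 lower, against 5.01% (median 0.17, beside 0.01). The list holds 3 genes, Coro1a, Cd44 and Anxa2, that had under 0.5 RPKM in Ctrl and passed the filter on low values through the crushed groups, so their levels are a description with no test. Without them, 26 of 52 rose in ONC/Ctrl (median 0.23) and 18 were higher in TPEN/Ctrl (median 0.15), and the counts in TPEN/ONC stayed at 12 and 2. Coro1a, an actin regulator abundant in leukocytes, was at 0.120 ± 0.0852 RPKM in Ctrl, 1.19 ± 0.218 in ONC and 0.477 ± 0.216 in TPEN (SD, n = 3). Anxa2, an annexin of many non-neuronal cells, was at 0.0965 ± 0.0554, 1.07 ± 0.106 and 0.645 ± 0.151 RPKM, and Cd44, an adhesion receptor of many cell types, at 0.331 ± 0.0832, 1.22 ± 0.210 and 1.23 ± 0.158 RPKM. Of the other 52, Fgf2, a growth factor that glia also make, had the largest rise in ONC/Ctrl (2.43, limma adjusted p = 6.1e-09). Coro1a, Anxa2 and Fgf2 had the same order of groups as the summed microglia and astrocyte markers given above, as did the members Gap43, Basp1 and Stmn2. The part of those cells in the levels of these genes was not tested.

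Of the 15 transcription factors tested, 6 rose in ONC/Ctrl (11.7% of all genes) and 0 fell (6.97%). In TPEN/ONC, Atf3 and Fos were lower (4.14% of all genes) and 0 were higher (3.24%). Atf3, an early factor of the injury response that acts with Jun, was at 6.17 ± 0.415 RPKM in Ctrl, 14.3 ± 0.682 in ONC and 10.5 ± 0.252 in TPEN (SD, n = 3), with log2 fold changes of 1.20 in ONC/Ctrl and -0.44 in TPEN/ONC (limma adjusted p = 8.8e-07 and 0.00252). Fos, an immediate early gene, had a log2 fold change of -0.25 in TPEN/ONC and -0.29 in TPEN/Ctrl (limma adjusted p = 0.0121 and 0.00293), and the first of these calls was lost without ONC replicate 1 (adjusted p = 0.0539). In TPEN/Ctrl, 5 factors were higher (8.36% of all genes), namely Stat3, Cebpd, Atf3, Creb1 and Atf4. Stat3, which carries the signal of injury cytokines to the nucleus, was at 3.66 ± 0.138, 14.6 ± 0.147 and 13.9 ± 0.223 RPKM in Ctrl, ONC and TPEN, and its difference in TPEN/ONC was -0.07 (95% interval -0.17 to 0.03). Among these factors, Stat3 was thus nearly as high with TPEN as with vehicle, as was Stmn4 among the members. Creb1, at 9.04 RPKM in ONC and 9.23 in TPEN, and Atf4, at 135.9 and 135.2 RPKM, also differed little there. Atf3 lay between Ctrl and ONC like Gap43.

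Of the 19 genes of the cytoskeleton and growth cone, 12 rose in ONC/Ctrl (11 of 18 without Coro1a), against 11.7% of all genes. In TPEN/ONC, 6 were lower (Dpysl3, Cap1, Kif5c, Tubb2b, Stmn1 and Marcksl1), against 4.14%, and 1, Map1b, was higher, against 3.24%. The call of Tubb2b there was lost without ONC replicate 2 (adjusted p = 0.0511). Map1b encodes a microtubule-associated protein of growing axons and was the most abundant of the genes named here, at 174 ± 1.36 RPKM in Ctrl, 279 ± 1.36 in ONC and 299 ± 2.99 in TPEN (SD, n = 3). It rose by 0.68 in ONC/Ctrl (limma adjusted p = 2.1e-08) and by a further 0.10 in TPEN/ONC (limma adjusted p = 0.0187), a call lost without any 1 ONC library or TPEN replicate 1 or 2 (adjusted p up to 0.0740). Kif5c, a kinesin heavy chain of neurons, was the only one of the 19 that was lower in TPEN/Ctrl, by a log2 fold change of -0.16 (limma adjusted p = 0.0177), against 5.01% of all genes, a call lost without Ctrl replicate 1 or TPEN replicate 2 or 3 (adjusted p up to 0.0640).

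Of the 4 peptides, growth factors and cytokines tested, Fgf2, Npy and Nrn1 rose in ONC/Ctrl (11.7% of all genes), and Cntf did not pass. Nrn1, which encodes neuritin, a protein on the surface of neurites, was at 1.36 ± 0.108 RPKM in Ctrl, 2.29 ± 0.138 in ONC and 1.54 ± 0.322 in TPEN (SD, n = 3), and was lower in TPEN/ONC by a log2 fold change of -0.56 (limma adjusted p = 0.0429). That call was lost in 8 of the 9 fits with 1 library left out (adjusted p up to 0.136) and with voom. Fgf2 was lower there too (-0.58, limma adjusted p = 4.8e-04) and remained above Ctrl in TPEN/Ctrl (1.85, limma adjusted p = 5.9e-08). Of the 17 receptors, adhesion and signalling genes, 8 rose in ONC/Ctrl (6 of 15 without Cd44 and Anxa2), against 11.7% of all genes, and 8 were higher in TPEN/Ctrl (6 of 15), against 8.36%. In TPEN/ONC, Lgals1, the gene of galectin 1, was lower (-1.23, limma adjusted p = 0.0295), as was Gadd45a (-0.26, limma adjusted p = 0.0146). The call of Lgals1 was lost without any 1 ONC library or TPEN replicate 1 or 2 (adjusted p up to 0.0974), and that of Gadd45a without ONC replicate 1 (adjusted p = 0.0620). Ngfr, the p75 neurotrophin receptor, was higher there (0.29, limma adjusted p = 0.0387), at 5.51 ± 0.464 RPKM in Ctrl, 7.35 ± 0.128 in ONC and 8.99 ± 0.528 in TPEN, a call lost in 7 of the 9 fits with 1 library left out (adjusted p up to 0.120).

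**Figure D5:**
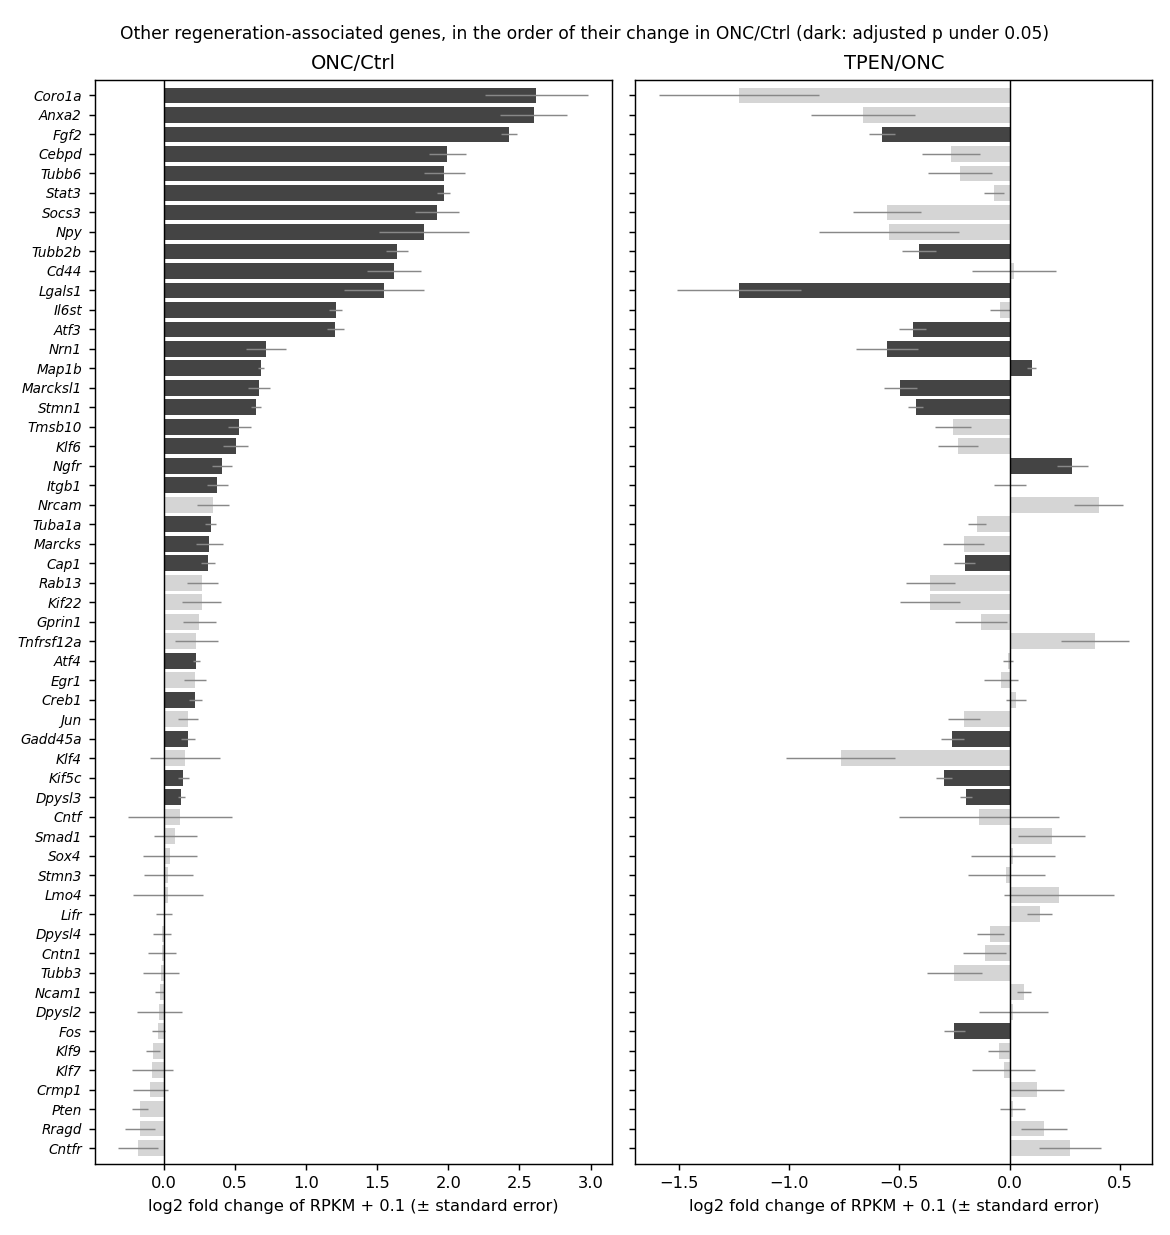
Log2 fold changes of RPKM + 0.1 with their standard errors for the 55 tested genes of the list of other regeneration-associated genes, in ONC/Ctrl and TPEN/ONC, in the order of their change in ONC/Ctrl; dark bars had a limma adjusted p under 0.05. In ONC/Ctrl, 29 bars are dark and all of them point right, among them Coro1a, Anxa2 and Cd44, which passed the filter on low values through the crushed groups, and in TPEN/ONC, 12 dark bars point left and 2, Ngfr and Map1b, point right.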

How the data were processed

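RNA from cells sorted as RGCs was sequenced by the authors from stranded mRNA libraries with molecular identifiers, trimmed (Trimmomatic 0.36 per the submitters' processing notes) and mapped with STAR to GRCm38/mm10. The counting program, its annotation, the use of strand and of the identifiers are not given in the sources used here. The authors deposited 1 table of RPKM values for 15228 genes, with p-values, q-values and log2 fold changes of their own edgeR comparisons, which were not used. Every deposited RPKM value times the exon length was a whole number of reads (within 0.01 of a read), which gave the read numbers and library totals. Within groups, the 9 pairs of libraries differed by more than sampling noise (mean chi-square per gene 2.30 to 5.14, where counting gives 1), so all 9 libraries were kept.

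RPKM values are not counts, so log2(RPKM + 0.1) values of genes whose mean reached 0.5 RPKM were tested with limma 3.58.1 (R 4.3.3), with a trend of variance on mean, 1 coefficient per group and Benjamini-Hochberg adjustment. The members and gene lists were chosen with earlier results of these data known. The text names the members, their family relatives, the 3 largest changes of the list of other regeneration-associated genes in each comparison and direction, groups of 5 or fewer, the 2 nearest profiles of each member that passed, and the highest and lowest marker of a list. The 6 cytoskeletal genes lower in TPEN/ONC were named after their values were seen, as was Cd44. Alternatives were quantile and median-of-ratios scaling, no filter or 1 RPKM, a pseudocount of 1, 6 libraries, a replicate block, each library left out, voom on reads, and a fold change of 1.5 as a further criterion or as the null. Promoter sequences came from RefSeq (GRCm38.p6).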

Additional observations from a re-analysis of the deposited data

How the results depend on the processing

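Reads limit Sox11 and Chl1 most. The calls of Gap43 and Stmn4 in ONC/Ctrl and of Gap43, Basp1 and Stmn4 elsewhere stayed on their side of the threshold under other scalings, pseudocounts, filters and left-out libraries, as far as these could be fitted. The counts moved when a fold change of 1.5 was set as the null, which left 1 member higher in ONC/Ctrl (Gap43), 0 lower in TPEN/ONC and 1 higher in TPEN/Ctrl, and 12 genes of the list of other regeneration-associated genes higher in ONC/Ctrl, 0 higher and 0 lower in TPEN/ONC, and 10 higher and 0 lower in TPEN/Ctrl. With that fold change as a further criterion, 0 members were lower in TPEN/ONC, and of the list 17 were higher in ONC/Ctrl, 0 higher and 1 lower in TPEN/ONC, and 0 lower in TPEN/Ctrl. Without a filter, Chl1 entered and 5 members were higher in ONC/Ctrl and 4 in TPEN/Ctrl. These counts of members leave out Sox11, whose place in the table rests on the crushed groups. The counts of the list in this section are taken with Coro1a, Cd44 and Anxa2 in it. Those genes passed the filter on low values through the crushed groups, so the counts are a description. Of the list, 1 gene was lower in ONC/Ctrl after quantile normalization, median-of-ratios scaling or voom, and voom gave 19 lower in TPEN/ONC and 4 lower in TPEN/Ctrl. With 1 library left out, the members higher numbered 4 in ONC/Ctrl and 2 in TPEN/Ctrl, where Stmn2 was lost, and 2 were lower in TPEN/ONC. The list then had 0 to 3 genes higher and 7 to 13 lower in TPEN/ONC (7 without ONC replicate 1), and 17 to 22 higher and 1 to 3 lower in TPEN/Ctrl. The difference of Stmn4 in TPEN/ONC was -0.0497 without ONC replicate 3 and ranged up to 0.181 over the left-out libraries. In alternatives added after seeing the data, the log2 ratio of Sox11 to Gap43 was -0.69 in ONC/Ctrl with 0.1 RPKM added, and 0.0843 in TPEN/ONC with that addition, 0.0760 without TPEN replicate 3 and 0.138 without ONC replicate 3 (from -0.251 over the left-out libraries). The cause of these changes was not tested.

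The groups share replicate numbers, but same-numbered libraries did not deviate together (correlations of -0.06 to 0.03 over 9 pairs of libraries), so the numbers do not pair them. With the replicate number as a block, Stmn2 in TPEN/Ctrl lost its call (adjusted p = 0.0750, from 0.0338 to 0.126 over the alternatives that tested for any change), and 0 genes of the list were higher in TPEN/ONC, since Map1b and Ngfr lost theirs. The calls of Cap1 and Nrn1 in TPEN/ONC, of Marcks and Nfasc in ONC/Ctrl and of L1cam in TPEN/Ctrl were lost with it too.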
